A study of Homo sapiens with 9 samples.

Results

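The DNA replication and S phase genes are 46 genes, listed by symbol, whose products load, start, run and finish the copying of chromosomes. All 46 symbols were rows of the deposited table of 14839 genes. The list was drawn up from the function of the genes and not from a measured value, but earlier results of these data were known when it was chosen. They comprise the origin recognition and licensing factors, the MCM2-7 helicase and its activators, the polymerases and primase, the sliding clamp and its loader, the enzymes of Okazaki fragments, the single-strand binding protein RPA, enzymes that supply nucleotides, and factors that rebuild chromatin behind the fork. RNA sequencing of polyA RNA had followed MP41, a uveal melanoma (UM) line with a mutated GNA11, over the time that followed transfection of miR-16, as a synthetic mimic, or of the control mimic miR-CTRL (66 nM of either). The times were 6, 12, 24 and 48 h for each mimic, and 1 further library of the control series was labelled 0 h. This gave 9 libraries, 4 with miR-16 and 5 labelled miR-CTRL, with 1 library for each condition. All libraries came from 1 cell line, so no condition had a replicate, a difference at a single time could not be tested, and how much parallel cultures vary was not measured. Time after transfection and time in culture cannot be told apart.

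In each cell cycle, the origin recognition complex with CDC6 and CDT1 places the MCM2-7 ring on DNA during G1, and CDC45 and GINS then turn the ring into a moving helicase at the start of S phase. Many of these genes are transcribed in a wave at the G1/S transition by E2F factors, which are held back by the retinoblastoma protein until cyclin-dependent kinases phosphorylate it. miR-16 is a tumour suppressor miRNA known to target cyclins of G1, and a miRNA usually lowers an mRNA through matches of its seed, bases 2 to 8, in the 3′UTR.

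In all libraries the values were log2(normalised reads + 1), and the reads recovered from them amounted to between 20270000 and 27360000 per library. Library medians lay between 9.13 and 9.17, and the 13 mitochondrial mRNAs of the polyA fraction held between 2.63% (0 h) and 4.0% (miR-16, 48 h) of the reads, and 3.65% with miR-CTRL at 48 h. The part of this share in the results was not tested. Of 9 melanocytic markers listed, 8 were in the table, and their summed level lay between 18.61 and 18.95. Of the markers of other cells, 3 of 6 fibroblast genes (COL1A1, LUM, PDGFRB), 1 of 4 immune genes (CD68) and 0 of 4 epithelial genes were in the table. The fibroblast genes summed to between 8.86 and 9.55 and the immune gene to between 5.46 and 5.86. The fibroblast genes did not move alike with miR-16 against miR-CTRL in the late window, where LUM, a matrix proteoglycan, was lower by a log2 difference of −0.81 (−0.98 at 48 h) and PDGFRB, a growth factor receptor with as few as 10 reads in a library, was higher by 1.8 (2.0 at 48 h), beside 0.04 for COL1A1. The part of these markers in the results was not tested. All 46 replication genes lay above the lowest 25% of mean expression and 43 lay in the upper 50%. Their reads made up 0.552% of the library at 0 h, and the fewest reads of any of them in a library were 183.

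The sequences that link these genes to miR-16 and to E2F are shown here because the results below are read beside them. Mature miR-16 (RefSeq, hsa-miR-16-5p), with its seed in capitals, and the other guide in the study's list of oligonucleotides, with bases 2 to 8 in capitals, were as follows. The list gives the miR-16 sequence under the name of the biotinylated control and the other guide under the name of biotinylated miR-16. The study describes biotinylated oligonucleotides for its pull-down, an experiment other than these libraries. The names were taken as swapped, and that the transfected miR-CTRL had this second sequence is an assumption.
miR-16: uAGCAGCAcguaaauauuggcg
other guide: uUGUACUAcacaaaaguacug

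A miR-16 site was TGCTGCT (7mer-m8), GCTGCTA (7mer-A1) or both joined (8mer) in the longest annotated 3′UTR (GENCODE version 29, GRCh38). Such a site was found in 6 of the 46 genes (13%), against 3382 of the 11572 protein-coding genes of the table (29.2%). The 6 genes were CDC6 and CDT1, which load the helicase, GINS2 and GINS4, subunits of GINS, and POLD3 and POLE, subunits of the replicative polymerases. None of the 46 genes had an 8mer, which 4.95% of the protein-coding genes had. The median 3′UTR of the 46 genes was 945 bases long, against 1419 bases over the protein-coding genes. The sites of 5 of these genes are printed with their surroundings, in the sense of the mRNA, with the site in capitals and the coordinates of the capitals in GRCh38.
CDC6, 7mer-A1, chr17:40304020-40304026, forward strand: ctcgcagtgggGCTGCTAtgtatcctccct
CDC6, 7mer-m8, chr17:40304192-40304198, forward strand: ttctaggtcatTGCTGCTcttaagacttta
CDT1, 7mer-m8, chr16:88808521-88808527, forward strand: acctctgtcctTGCTGCTggtggggaaggg
GINS2, 7mer-m8, chr16:85677390-85677396, reverse strand: gtcactttcagTGCTGCTcttgatggattt
POLD3, 7mer-m8, chr11:74641537-74641543, forward strand: aggagctgccgTGCTGCTgatacggggtgt
POLD3, 7mer-m8, chr11:74641562-74641568, forward strand: ggtgtgctttaTGCTGCTctttgcggtttg
POLE, 7mer-A1, chr12:132623798-132623804, reverse strand: ctgaggccatcGCTGCTAcactttgttttt

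Matches to the other guide were found in 2 of the 46 genes (4.35%), against 1705 of the 11572 (14.7%). These were ORC6, a subunit of the origin recognition complex, and GMNN, which encodes geminin, the inhibitor of CDT1. They are shown because GMNN was the replication gene that stood highest with miR-16 against miR-CTRL.
GMNN, 7mer-A1, chr6:24785940-24785946, forward strand: tattgcattaaAGTACAAatactatgtatt
ORC6, 7mer-m8, chr16:46697621-46697627, forward strand: ttccaaactgaTAGTACAttgccatctcca

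Promoter sequences from 250 bases before to 50 bases after the start (RefSeq, GRCh38.p14) were matched for 40 of the 46 genes. The E2F motif was searched on both strands as TTGGCGC in one form, as TTCCCGC in another, as TTGCCGC in the third and as TTCGCGC in the last, and matches that overlap on the 2 strands were counted separately. At least 1 match was found in 29 of the 40 promoters (72.5%), against 2019 of 9599 promoters of the table (21.0%). At least 2 matches were found in 14 (35.0%), against 3.23% of all. The CHR motif of late cell cycle genes, searched as TTTGAA or in its other form TTCGAA, was found in 2 of the 40 (5.0%), against 10.9% of all. A match describes the letters and not the binding of a factor. The windows below each hold 30 bases with 1 match in capitals, and their coordinates are in GRCh38.p14. They show genes that were lower with miR-16 past the threshold at 48 h (CDC6, DTL, CHAF1A) and subunits of the helicase (MCM2, MCM6, MCM7). They also show genes with the motif that did not pass the threshold at 48 h (RFC1, LIG1).
CDC6, chr17:40287876-40287905, forward strand: gccattcggatTTGGCGCgagcgcggctgg
DTL, chr1:212035730-212035759, forward strand: gtgacgtcagtTTGGCGCggagtttggcgg
CHAF1A, chr19:4402592-4402621, forward strand: ggctcgcccaaTTGGCGCgcggactgcggg
MCM2, chr3:127598403-127598432, forward strand: gtgaaccacttTTCGCGCgaaacctggttg
MCM6, chr2:135876514-135876543, reverse strand: attggtcaggtTTGGCGCgaaatctccagc
MCM7, chr7:100101387-100101416, reverse strand: gggggcgacgtTTCGCGCcaatttcggttg
RFC1, chr4:39366313-39366342, reverse strand: cgcgggagaagttgTTGGCGCgaatggatc
LIG1, chr19:48170316-48170345, reverse strand: cagacgtctgcGCGCGAAtgccgtggcgcg

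**Figure D1:**
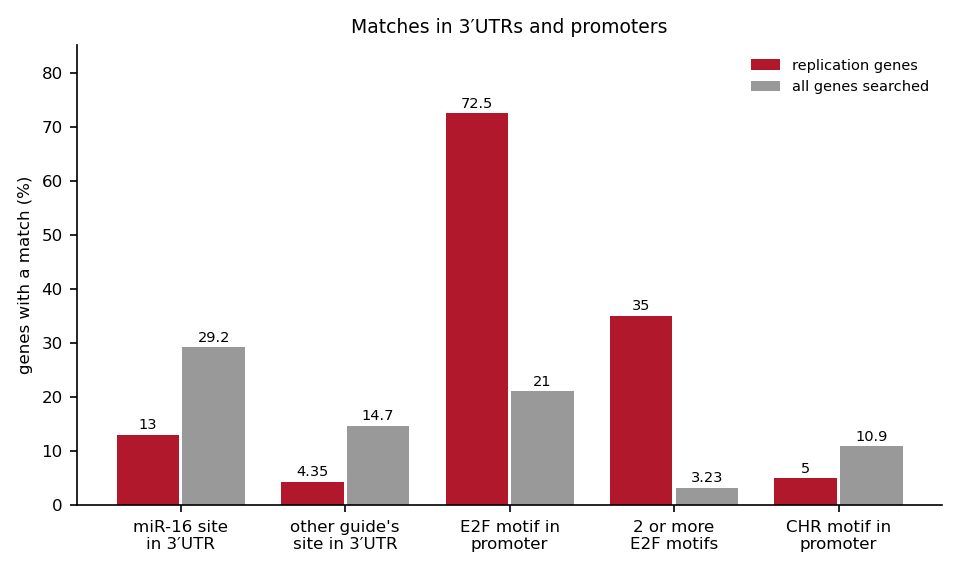
Percentage of genes with a miR-16 site or a site of the other guide in the 3′UTR (46 replication genes, 11572 protein-coding genes) and with E2F or CHR motifs in the promoter (40 replication genes, 9599 promoters). Red bars stand for the replication genes and grey bars for all genes searched, and the replication genes held fewer miR-16 sites (13% against 29.2%) and more E2F motifs (72.5% against 21.0%) than all genes.

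The first comparison asked how the replication genes stood with miR-16 against miR-CTRL at the same time. Most of them stood lower with miR-16, by the most at 48 h. Up to 24 h few genes had moved past 0.5, whereas at 48 h 34 of 46 were down-regulated past 0.5. The median gene then stood at 0.597 of its miR-CTRL level. The logFC is the log2 value with miR-16 minus that with miR-CTRL, and a gene was called when its logFC was beyond 0.5 in size. At 6, 12, 24 and 48 h, the median logFC of the 46 genes was −0.02, −0.10, −0.18 and −0.75, while the median of all genes was 0.00 at 24 and at 48 h. Below 0 at 6, 12 and 24 h were 26, 34 and 39 of the 46 genes. Of all 14839 genes, 7079, 7144 and 7180 were. No replication gene was down-regulated at 6 h, when 3.34% of all genes were, and none at 12 h, when 2.53% were. At 24 h the count was 2 of 46, DTL and MCM10 (4.35%), with 5.26% of all genes below the threshold. Both were also below it at 48 h, and 2.78% of all genes were below it at both times. At 48 h it was 34 of 46 (73.9%), with 8.96% of all genes below it. One gene, GMNN, was up-regulated at 6, 12 and 24 h (3.38%, 3.31% and 7.24% of all genes were) and none at 48 h (10.4%). In these bulk libraries, fewer cells in S phase and less of each mRNA per cell cannot be told apart.

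**Figure D2:**
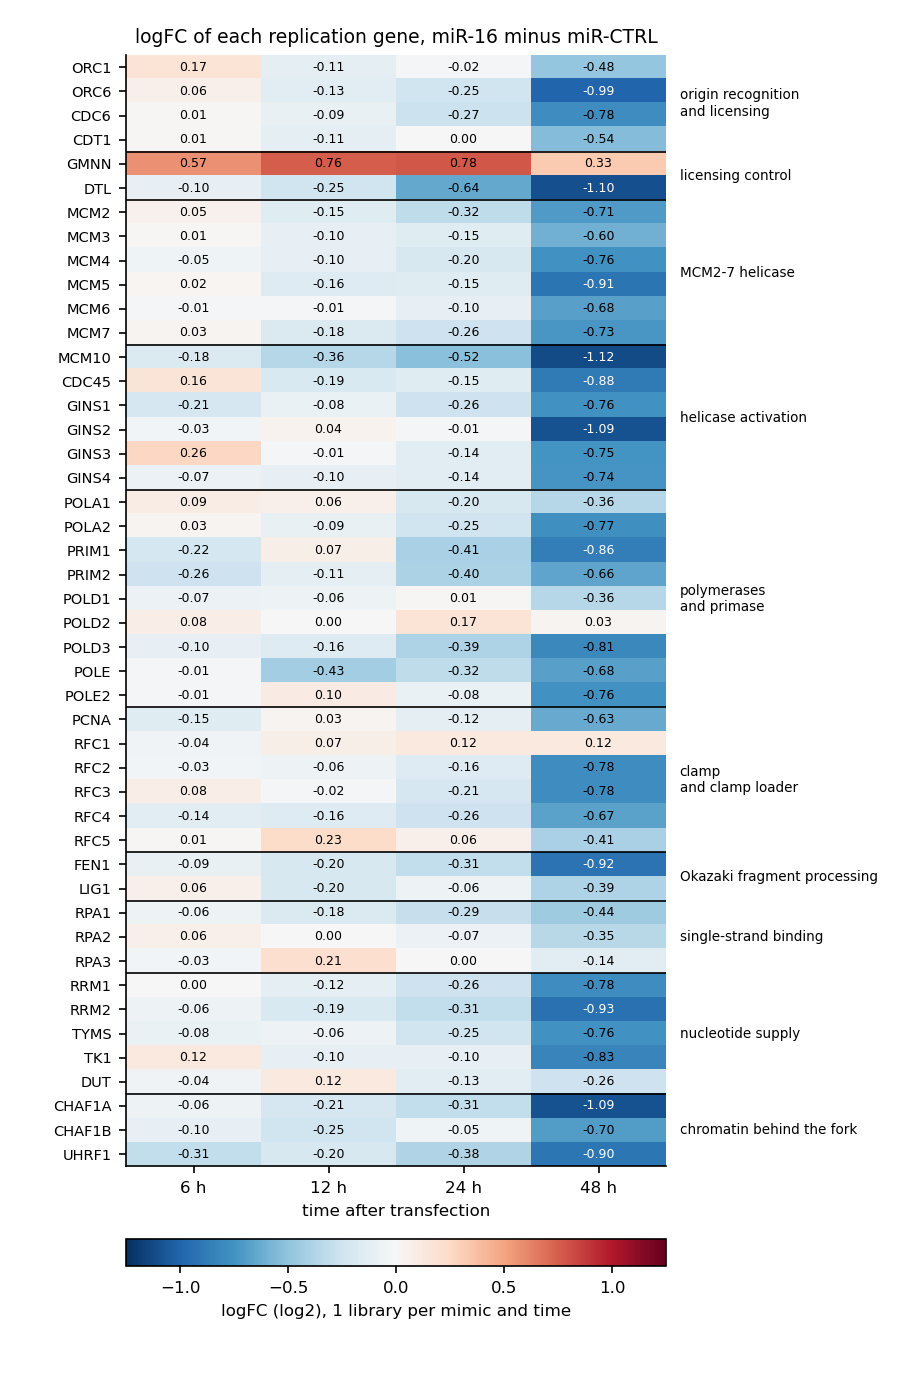
The logFC (log2, miR-16 minus miR-CTRL) of each of the 46 genes at 6, 12, 24 and 48 h, grouped by role, with 1 library per mimic and time; blue is lower and red is higher with miR-16. The 48 h column is blue for 43 genes, 34 of them below −0.5, while GMNN is red at all 4 times.

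The late logFC, for which the values of 24 and 48 h were averaged, was below −0.5 for 19 of the 46 genes (41.3%), against 5.73% of all genes, and above 0.5 for GMNN alone, against 7.76% of all. The median late logFC of the 46 genes was −0.48. The threshold ran through the middle of the list, with 10 genes between −0.55 and −0.5 and another 7 between −0.5 and −0.45, so that under quantile normalization the count was 12 and with a threshold of 1.5-fold it was 9. The counting standard error of a late logFC, which covers the reads only and not the spread between cultures, had a median of 0.039 over the 46 genes and reached 0.084 for ORC6. With it, 7 genes had a 95% counting interval wholly below −0.5 (DTL, MCM10, PRIM1, FEN1, RRM2, CHAF1A and UHRF1). The share of all genes with such an interval was not computed. Values below with ± are a late or 48 h logFC with this counting standard error. In the early window, the mean of 6 and 12 h, no gene was below −0.5 (1.45% of all genes were) and GMNN was above 0.5 (2.04% were).

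With the 2 libraries of the same hour taken as a pair, the difference averaged over times was tested with limma across all 14839 genes, in a fit with time as a block that was chosen after the data were seen. Over the 4 pairs from 6 to 48 h, 6 of the 46 genes were lower with miR-16 at a Benjamini-Hochberg adjusted p under 0.05 (5.73% of all genes were) and GMNN was higher (4.93% were). The 6 genes were MCM10 (adjusted p = 0.027), UHRF1 (0.027), DTL (0.037), POLE (0.037), PRIM2 (0.041) and RPA1 (0.043), with average logFCs between −0.55 and −0.24. GMNN had an average logFC of 0.61 with a standard error of 0.078 and an adjusted p of 0.0037. Over the 2 late pairs limma called no gene of the table at this threshold (lowest adjusted p over all genes 0.069), while 25 of the 46 genes were lower and 1 was higher at an unadjusted p under 0.05, against 16.2% and 15.2% of all genes. The spread in these fits is that of the mimic difference between hours of 1 series, so a difference that grew with time adds to it, and cultures were not replicated.

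Most of the movement fell between 24 and 48 h. Of the 46 genes, 45 had a lower logFC at 48 h than at 24 h, RFC1 being the exception. Among the 34 genes past −0.5 at 48 h, the logFC at 24 h was a median of 30.5% of that at 48 h. The median change of the 46 genes from 24 to 48 h was −0.59 with miR-16, where 45 genes were lower at 48 h, and −0.05 with miR-CTRL, where 34 were lower. For 41 of the 46 genes the miR-16 library of 48 h held the lowest of the 9 values, as it did for 22.2% of all genes. The exceptions were GMNN, POLD2, RFC1, LIG1 and DUT. With miR-16 the 4 values fell in order from 6 to 48 h in 38 of the 46 genes, and 18 genes had a logFC below 0 at all 4 times, which 16.7% of all genes had. The shares of all genes for the falling order and for the counts between 24 and 48 h were not computed. How far these counts stand out is therefore not known.

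**Figure D3:**
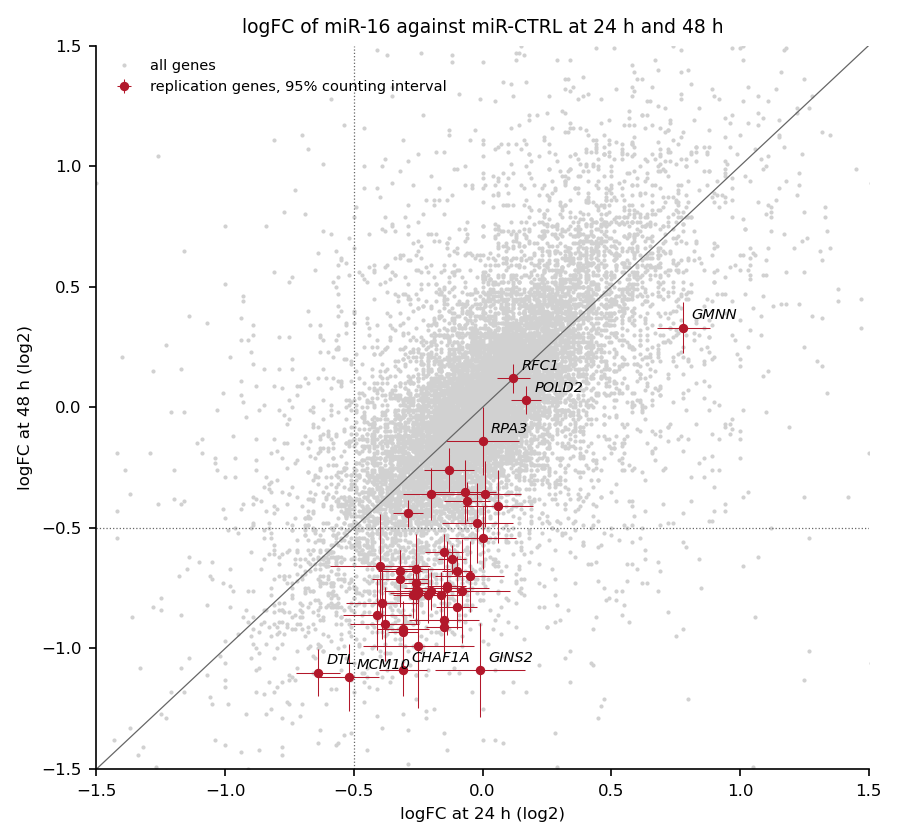
The logFC at 24 h (x axis, log2) against that at 48 h (y axis, log2) for the 46 replication genes (red, with 95% counting intervals) and all genes (grey), with the diagonal and dotted lines at −0.5; genes beyond 1.5 in size are outside the axes. All red points but that of RFC1 lie below the diagonal, and of the red points those of DTL and MCM10 alone are below −0.5 at both times.

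Origin recognition and licensing factors choose the origins and load the helicase. Of the 4 genes, 3 were below −0.5 at 48 h, 2 (ORC6 and CDC6) in the late window and none at 24 h. ORC1, the large ATPase subunit of the origin recognition complex, stood at 10.33 at 0 h, at 10.58, 10.10, 9.77 and 9.42 with miR-CTRL and at 10.75, 9.99, 9.75 and 8.94 with miR-16, the values of each mimic here and below being those of 6, 12, 24 and 48 h. Its level was highest with both mimics at 6 h and lower at each later time, the libraries of both mimics lay within 0.17 of each other at 24 h and before, and the logFC of 48 h was −0.48 ± 0.084. ORC6, the smallest subunit of the same complex, stood at 8.82 at 0 h, at 9.08, 8.73, 8.59 and 8.59 with miR-CTRL and at 9.14, 8.60, 8.34 and 7.60 with miR-16. It was the lowest in the miR-16 library of 48 h, where its level was 0.503 of that with miR-CTRL, and the late logFC was −0.62 ± 0.084. CDC6, the ATPase that joins the complex in G1, stood at 11.96 at 0 h, at 12.18, 11.79, 11.58 and 11.25 with miR-CTRL and at 12.19, 11.70, 11.31 and 10.47 with miR-16. Its level fell from 0 h with both mimics in the late window and further with miR-16, and the late logFC was −0.53 ± 0.031. CDT1, which brings the MCM ring to the complex, stood at 10.32 at 0 h, at 10.49, 10.06, 9.96 and 10.09 with miR-CTRL and at 10.50, 9.95, 9.96 and 9.55 with miR-16. Its values with the mimics were equal at 24 h and separated at 48 h, with a logFC of −0.54 ± 0.067.

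The pair of genes that control CDT1 differed between the mimics in opposite directions, though both were below 0 h in the late window with either mimic. GMNN lies at chr6:24774931-24786099, forward strand (GRCh38), and its product, geminin, binds CDT1 in S and G2 phase and keeps origins from firing again. GMNN stood at 11.45 at 0 h, at 10.92, 10.52, 10.28 and 10.22 with miR-CTRL and at 11.49, 11.28, 11.06 and 10.55 with miR-16. The level fell from 0 h with both mimics but sooner with miR-CTRL, so that all 4 miR-16 values were above those of miR-CTRL at the same time. Its logFC was 0.57, 0.76, 0.78 and 0.33 at the 4 times and 0.56 ± 0.038 in the late window. From 0 h the late change was −1.20 with miR-CTRL and −0.65 with miR-16, so its sign depends on the reference library. The other guide's 7mer-A1 site in the GMNN 3′UTR is printed above, and the part of this site in the lower miR-CTRL values was not tested. DTL encodes the substrate receptor of the ubiquitin ligase that destroys CDT1 on replicating DNA, and lies at chr1:212035553-212107400, forward strand. Its level was 11.66 at 0 h, at 11.67, 11.37, 11.47 and 11.42 with miR-CTRL and at 11.57, 11.12, 10.83 and 10.32 with miR-16. With miR-CTRL it stayed within 0.29 of its 0 h level, whereas with miR-16 each later library was lower than the one before it. Its logFC was −0.10, −0.25, −0.64 and −1.10, and the late logFC of −0.87 ± 0.033 was the lowest of the 46 genes.

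The 6 subunits of the MCM2-7 ring, the motor of the replicative helicase, moved as a block. All 6 were below −0.5 at 48 h, with logFCs between −0.91 and −0.60, none was at 24 h, and all 6 lay between −0.53 and −0.38 in the late window, where MCM2 and MCM5 were past the threshold. MCM2 stood at 10.82 at 0 h, at 11.01, 10.70, 10.69 and 10.56 with miR-CTRL and at 11.06, 10.55, 10.37 and 9.85 with miR-16, and MCM3 at 11.90 at 0 h, at 12.10, 11.82, 11.73 and 11.78 with miR-CTRL and at 12.11, 11.72, 11.58 and 11.18 with miR-16. MCM4 stood at 12.08 at 0 h, at 12.22, 11.83, 11.76 and 11.71 with miR-CTRL and at 12.17, 11.73, 11.56 and 10.95 with miR-16, and MCM5 at 12.05 at 0 h, at 12.21, 11.84, 11.82 and 11.92 with miR-CTRL and at 12.23, 11.68, 11.67 and 11.01 with miR-16. In each of these 4 genes the 6 h libraries were the highest of their mimic, the mimics differed by at most 0.16 at 6 and 12 h, and the miR-16 library of 48 h was the lowest of the 9. MCM6 stood at 12.53 at 0 h, at 12.67, 12.38, 12.32 and 12.31 with miR-CTRL and at 12.66, 12.37, 12.22 and 11.63 with miR-16. MCM7 stood at 13.25 at 0 h, at 13.45, 13.20, 12.97 and 13.07 with miR-CTRL and at 13.48, 13.02, 12.71 and 12.34 with miR-16. MCM6 was the subunit with the smallest difference at 24 h (−0.10), and the late logFC was −0.39 ± 0.022 for MCM6 and −0.50 ± 0.018 for MCM7, just short of the threshold. From 0 h, the 6 subunits changed by −0.35 to −0.15 in the late window with miR-CTRL and by −0.83 to −0.52 with miR-16.

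Although the ring holds 1 copy of each subunit, the mRNAs were not equal in level. Per kilobase of 1 annotated transcript a gene (GENCODE version 29), that with the longest coding sequence, the level at 0 h was 499 normalised reads for MCM2, 1190 for MCM3, 1200 for MCM5, 1370 for MCM4, 1580 for MCM6 and 3290 for MCM7. MCM7 shares exonic bases with AP4M1 on the other strand and MCM2 with TPRA1, and the strand used in the counting is not given in the sources used here. Of the 46 genes, 16 have an exon that overlaps a gene on the opposite strand and 7 one that overlaps another gene on the same strand. Only some of these overlaps are named in this text.

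The 6 activators that turn the loaded ring into a moving helicase were all below −0.5 at 48 h, with logFCs between −1.12 and −0.74, and 4 were in the late window. MCM10, which joins the helicase as it starts to move, lies at chr10:13161554-13211104, forward strand, and stood at 10.94 at 0 h, at 11.16, 10.75, 10.55 and 10.38 with miR-CTRL and at 10.98, 10.39, 10.03 and 9.26 with miR-16. Its logFC was −0.18, −0.36, −0.52 and −1.12, below 0 at each time, and the late logFC was −0.82 ± 0.046. CDC45, which joins MCM2-7 and GINS in the active helicase, stood at 10.10 at 0 h, at 10.25, 10.09, 9.89 and 9.88 with miR-CTRL and at 10.41, 9.90, 9.74 and 9.0 with miR-16. Its miR-16 value was above that of miR-CTRL at 6 h, its 48 h level was 0.543 of that with miR-CTRL, and the late logFC was −0.52 ± 0.052. GINS1 and GINS2 are subunits of GINS, the third part of the helicase. GINS1 stood at 10.80 at 0 h, at 10.94, 10.50, 10.26 and 10.14 with miR-CTRL and at 10.73, 10.42, 10 and 9.38 with miR-16. GINS2 stood at 9.65 at 0 h, at 9.65, 9.35, 9.08 and 9.25 with miR-CTRL and at 9.62, 9.39, 9.07 and 8.16 with miR-16. The mimics differed by no more than 0.04 for GINS2 at 6, 12 and 24 h and by −1.09 ± 0.1 at 48 h, the widest step between 24 and 48 h of the 46 genes. GINS3 and GINS4, the other subunits, had late logFCs of −0.45 and −0.44 and were past −0.5 at 48 h alone.

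The polymerases and primase did not move alike. Of the 9 genes, 6 were below −0.5 at 48 h and 4 in the late window, and 1 was above 0 at both times. In the polymerase alpha and primase complex, which lays down primers, the late logFC was −0.28 for POLA1, the catalytic subunit, −0.51 ± 0.042 for POLA2, −0.64 ± 0.051 for PRIM1 and −0.53 ± 0.074 for PRIM2. POLA2, the regulatory subunit, stood at 10.63 at 0 h, at 10.78, 10.59, 10.56 and 10.52 with miR-CTRL and at 10.81, 10.50, 10.31 and 9.75 with miR-16. PRIM1, the catalytic primase subunit, stood at 10.17 at 0 h, at 10.30, 9.86, 10.12 and 9.98 with miR-CTRL and at 10.08, 9.93, 9.71 and 9.12 with miR-16. PRIM2, the large primase subunit, stood at 8.86 at 0 h, at 8.94, 8.92, 9.01 and 8.74 with miR-CTRL and at 8.68, 8.81, 8.61 and 8.08 with miR-16. For these 3 genes the miR-16 values of 24 and 48 h were below every miR-CTRL value. PRIM1 shares exonic bases with NACA on the same strand, so that its reads may be counted in part for either gene.

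Polymerase delta copies the lagging strand, and its subunits had 3 different courses. POLD2, an accessory subunit, stood at 12.31 at 0 h, at 12.21, 12.21, 12.12 and 12.09 with miR-CTRL and at 12.29, 12.21, 12.29 and 12.12 with miR-16. Its 9 values lay within 0.22 of each other, and its late logFC of 0.10 ± 0.021 was the third highest of the 46 genes. POLD3, which binds the clamp, stood at 10.16 at 0 h, at 10.35, 9.85, 9.94 and 9.90 with miR-CTRL and at 10.25, 9.69, 9.55 and 9.09 with miR-16. It was lower with miR-16 at each time, with a late logFC of −0.60 ± 0.052, and holds 2 miR-16 sites. POLD1, the catalytic subunit, had logFCs of −0.07, −0.06, 0.01 and −0.36 and was not called. For polymerase epsilon, which copies the leading strand, the logFC at 48 h was −0.68 for the catalytic subunit POLE and −0.76 for POLE2, and in the late window both missed the threshold (−0.50 and −0.42).

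The clamp and its loader had no call in the late window. PCNA, the ring that holds polymerases on DNA, stood at 12.87 at 0 h, at 12.99, 12.67, 12.46 and 12.39 with miR-CTRL and at 12.84, 12.70, 12.34 and 11.76 with miR-16. Its mimics differed by 0.15 or less up to 24 h and by −0.63 ± 0.031 at 48 h. The loader RFC has a large subunit, RFC1, and the small subunits RFC2 to RFC5. RFC1 lies at chr4:39287456-39366375, reverse strand, and stood at 12.02 at 0 h, at 12.08, 11.95, 11.97 and 11.96 with miR-CTRL and at 12.04, 12.02, 12.09 and 12.08 with miR-16. Its 9 values lay within 0.14 of each other and its logFC at 48 h was 0.12 ± 0.031. Among the small subunits, RFC2, RFC3 and RFC4 were past −0.5 at 48 h (−0.78, −0.78 and −0.67) and RFC5 was at −0.41. The RFC5 level was lower than at 0 h with both mimics, by a late change of −0.55 with miR-CTRL and −0.73 with miR-16. RFC4 stood above 0 h with miR-CTRL and below it with miR-16 in the late window (0.14 and −0.33).

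FEN1, the nuclease that trims the flap of Okazaki fragments, and LIG1, the ligase that seals them, differed. FEN1 stood at 11.12 at 0 h, at 11.29, 10.99, 10.81 and 10.71 with miR-CTRL and at 11.20, 10.79, 10.50 and 9.79 with miR-16. The miR-16 values were below those of miR-CTRL at each time, the level at 48 h was 0.529 of that with miR-CTRL, and the late logFC was −0.62 ± 0.04. FEN1 shares exonic bases with FADS2 on the same strand and with TMEM258 on the other. LIG1 was the replication gene that rose furthest from 0 h with miR-CTRL, by 0.61 at 48 h, and the single one past 0.5 upward there (15.5% of all genes were). Its change with miR-16 was 0.22, and its logFC at 48 h was −0.39 ± 0.042.

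None of the 3 subunits of RPA, which coats single-stranded DNA in replication and repair, passed the threshold of 0.5 at any time. RPA1, the large subunit, stood at 12.45 at 0 h, at 12.49, 12.55, 12.52 and 12.44 with miR-CTRL and at 12.43, 12.37, 12.23 and 12.00 with miR-16. RPA2 stood at 10.59 at 0 h, at 10.89, 10.40, 10.14 and 9.95 with miR-CTRL and at 10.95, 10.40, 10.07 and 9.60 with miR-16, and RPA3, the smallest, at 9.76 at 0 h, at 9.66, 9.70, 9.71 and 9.66 with miR-CTRL and at 9.63, 9.91, 9.71 and 9.52 with miR-16. RPA2 fell from 0 h with both mimics, RPA1 was lower with miR-16 at each time by up to 0.44, and the mimics differed little for RPA3, whose logFC at 48 h was −0.14 ± 0.072 and whose late interval was the only one of the 46 to include 0. RPA3 shares exonic bases with UMAD1 on the other strand.

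**Figure D4:**
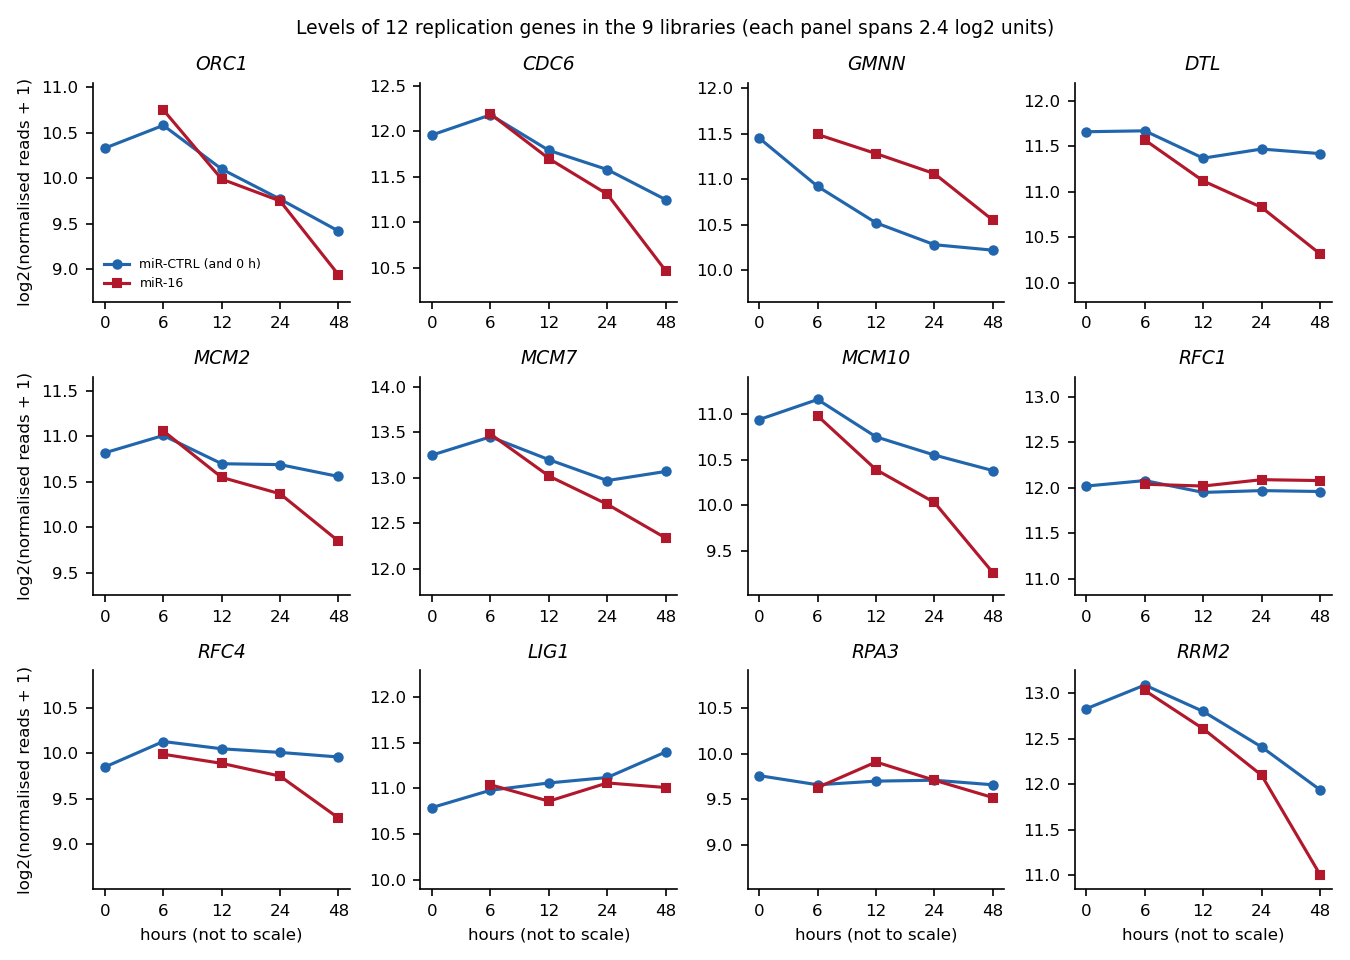
Levels of 12 of the genes, as log2(normalised reads + 1), in the 0 h library and at 6, 12, 24 and 48 h with miR-CTRL (blue circles) or miR-16 (red squares), 1 library per point, with hours not to scale and each panel spanning the same log2 range. In CDC6, MCM2, MCM7 and RRM2 the red line lies below the blue line at 24 h (by −0.27, −0.32, −0.26 and −0.31) and furthest below it at 48 h. The red line lies above the blue line in GMNN, and stays beside it in RFC1 and RPA3.

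Of the 5 genes that supply nucleotides, 4 were below −0.5 at 48 h and 3 in the late window. RRM1 and RRM2 encode the subunits of ribonucleotide reductase, which makes deoxyribonucleotides. RRM1 stood at 11.96 at 0 h, at 12.19, 12.00, 11.77 and 11.65 with miR-CTRL and at 12.19, 11.88, 11.51 and 10.87 with miR-16. RRM2, the subunit made in S phase, stood at 12.83 at 0 h, at 13.09, 12.80, 12.41 and 11.94 with miR-CTRL and at 13.03, 12.61, 12.10 and 11.01 with miR-16. RRM2 fell from 0 h with both mimics, with changes at 48 h of −0.89 for miR-CTRL and −1.82 for miR-16, the latter the largest change from 0 h of the 46 genes, and its late logFC was −0.62 ± 0.025. TYMS, thymidylate synthase, stood at 12.48 at 0 h, at 12.70, 12.64, 12.38 and 12.32 with miR-CTRL and at 12.62, 12.58, 12.13 and 11.56 with miR-16. The late logFC was −0.51 ± 0.022 for TYMS and −0.52 ± 0.028 for RRM1, both close to the threshold, and TYMS shares exonic bases with ENOSF1 and TYMSOS on the other strand. TK1, the thymidine kinase of S phase, had a logFC of −0.83 at 48 h, beside −0.47 in the late window. DUT, which removes dUTP, had −0.26 at the same time and was not called.

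All 3 factors that act on chromatin behind the fork were below −0.5 at 48 h. CHAF1A and CHAF1B are subunits of the histone chaperone CAF-1, which deposits histones on new DNA, and UHRF1 brings the maintenance methyltransferase to it. CHAF1A stood at 11.32 at 0 h, at 11.47, 11.11, 11.07 and 11.12 with miR-CTRL and at 11.41, 10.90, 10.76 and 10.03 with miR-16. UHRF1 stood at 10.62 at 0 h, at 11.03, 10.34, 10.09 and 9.90 with miR-CTRL and at 10.72, 10.14, 9.71 and 9.0 with miR-16. CHAF1A differed little between the mimics at 6 h, its 48 h level was 0.47 of that with miR-CTRL, and it had the third lowest late logFC of the 46 genes (−0.70 ± 0.036). UHRF1 was lower with miR-16 at each time and fell from 0 h with both mimics, with a late logFC of −0.64 ± 0.052. CHAF1B was past −0.5 at 48 h (−0.70) and at −0.38 in the late window.

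The second comparison set each library against 0 h. Both mimics share this 0 h library, so their changes from it are not independent, and they are given side by side. At 6 h the replication genes stood slightly above 0 h with both mimics, with a median change of 0.16 with miR-CTRL and 0.14 with miR-16, and 34 of the 46 genes were above 0 h with both. With miR-CTRL 40 of the 46 genes were above 0 h (7410 of all 14839 genes), and with miR-16 35 were (7552 of all). The share of all genes above 0 h with both was not computed. At 12, 24 and 48 h the median change was then −0.13, −0.23 and −0.25 with miR-CTRL, beside −0.19, −0.41 and −1.05 with miR-16. The median thus moved down with time in the control series as well, and between 6 and 48 h their share of the reads went from 0.609% to 0.443% with miR-CTRL, and from 0.594% to 0.293% with miR-16.

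In the late window, 8 of the 46 genes had fallen past 0.5 from 0 h with miR-CTRL (17.4%), against 9.79% of all genes, and 37 had with miR-16 (80.4%), against 11.7% of all. None had risen past 0.5 in the late window with either mimic, against 11.0% and 14.1% of all genes. The 8 genes with miR-CTRL were ORC1 (−0.74), CDC6 (−0.55), GMNN (−1.20), GINS1 (−0.60), RFC5 (−0.55), RPA2 (−0.55), RRM2 (−0.66) and UHRF1 (−0.63). Their values with miR-16 in the same order were −0.99, −1.07, −0.65, −1.11, −0.73, −0.76, −1.28 and −1.27. Of these 8 genes, ORC1, RFC5 and RPA2 had no late call between the mimics (−0.25, −0.18 and −0.21), and the change of GMNN was larger with miR-CTRL than with miR-16. At 24 h, 17 genes had fallen past 0.5 with miR-16 (8.55% of all genes had) and 5 with miR-CTRL (7.86%). At 48 h the counts were 38 (16.2%) and 9 (13.9%).

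**Figure D5:**
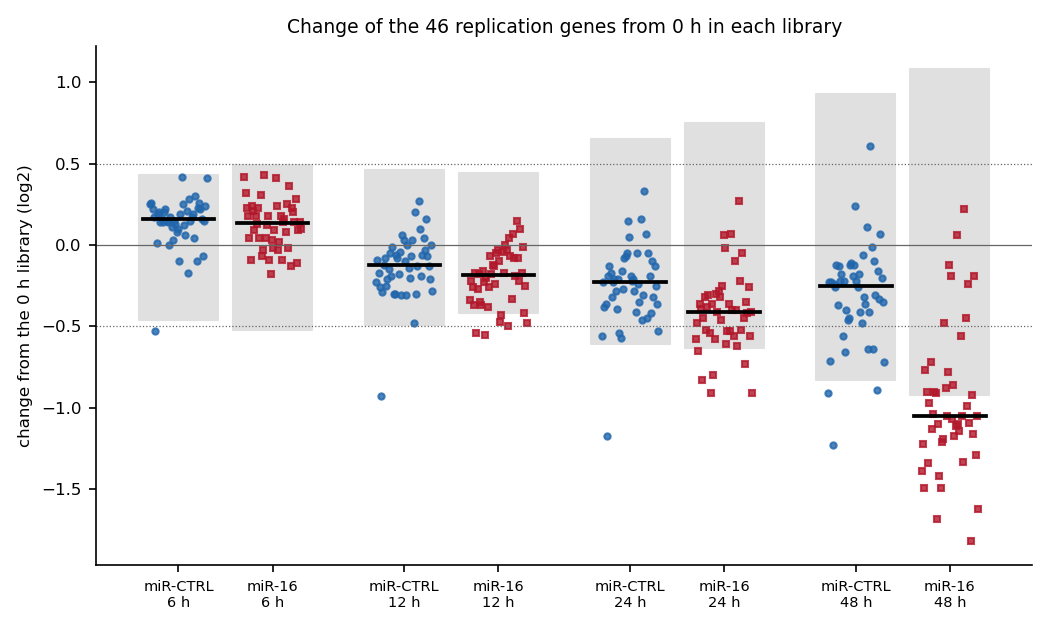
Change from the 0 h library (log2) of each of the 46 genes with miR-CTRL (blue circles) and miR-16 (red squares) at 6, 12, 24 and 48 h, with the median of the 46 genes as a black bar, the range from the 5 to the 95 percentile of all genes in grey, and dotted lines at 0.5 and −0.5; 1 library per column. The medians lie at 0.16 and 0.14 at 6 h and part to −0.25 with miR-CTRL and −1.05 with miR-16 at 48 h.

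The course of the 46 genes was set beside the miR-16 sites and the E2F motifs printed above. All 6 genes with a miR-16 site and 28 of the 40 without one were below −0.5 at 48 h, with medians of −0.76 and −0.74. In the late window the counts were 3 of 6 and 16 of 40, with medians of −0.52 and −0.47, and in the early window the medians were −0.07 and −0.06. The lowest late values were those of DTL, MCM10 and CHAF1A, which are among the 40 genes without a site. In the promoter, DTL and CHAF1A held an E2F motif and MCM10 held none. Of the 29 genes with an E2F motif in the promoter, 23 were below −0.5 at 48 h (79.3%), with a median of −0.73. Of the 11 genes whose promoter held none of these letters, 7 were (63.6%), with a median of −0.83. Both splits rest on 1 library per condition and on few genes in 1 arm, and they are given as counts.

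Other genes of the cell cycle were counted in the same way, from lists set by function with earlier results of these data known. Of 40 other replication genes in the table, 9 were below −0.5 in the late window and 20 at 48 h, none was above 0.5, and the median late logFC was −0.30. The 4 lowest were ASF1B, a histone chaperone (−0.84), CLSPN, a mediator of the replication checkpoint (−0.80), MMS22L, which aids repair of stalled forks (−0.76), and HELLS, a chromatin remodeller (−0.71). Of 20 regulators of the G1/S transition, 12 were below −0.5 in the late window and none above 0.5, with a median of −0.58. The 4 lowest were CDC25A, the phosphatase that activates CDK2 (−1.21), WEE1, the kinase that restrains CDKs (−1.06), and the cyclins CCND3 (−1.02) and CCNE2 (−0.93). These 4 were already past −0.5 at 24 h, with logFCs of −1.04, −0.84, −0.85 and −0.75. Among the 20 regulators, 6 were below −0.5 at 24 h, against 2 of the 46 replication genes. All 6 (CDC25A, WEE1, CCND3, CCNE2, CCND1 and E2F7) hold a miR-16 site. The study names CCND1, CCND3 and WEE1 as miR-16 targets. Sites were also found in CCNE1, CHEK1, E2F3, CDK4, CDK6 and CDKN1A, which were not past −0.5 at 24 h. The part of the sites in the earlier fall of the regulators was not tested. Of 25 mitosis genes, 1 was below −0.5 at 24 h (4.0%), 21 were at 48 h (84.0%) and 12 in the late window (48.0%). Their late median was −0.50. The 4 lowest were ANLN, an actin binding protein of cytokinesis (−1.21), CDK1, the mitotic kinase (−0.73), and the kinesins KIF11 (−0.65) and KIF23 (−0.65). A difference between the replication genes and these lists was not tested.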

How the data were processed

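The authors deposited 1 normalised value per gene and library, on a log2 scale with 2 decimals. Per the labels, reads were aligned to hg38 (GRCh38) with STAR 2.4.0a and counted with featureCounts of Subread 1.5.0-p3. The tool of normalisation, the gene annotation and the filter on low genes are not given in the sources used here. In each library, 100.0% of the low deposited values (up to 5 on the log2 scale) were whole multiples of a step of that library within 0.1 reads plus rounding, so the unit is log2(reads / size factor + 1), and the reads were recovered with the step for counting errors only. Columns carried T0, T1, T2, T4 and T5, which were taken in time order as 0, 6, 12, 24 and 48 h.

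The logFC was the difference between mimics at each time, the early and late logFC were means of 6 and 12 h and of 24 and 48 h, and genes past 0.5 were called. With 1 library per condition no difference at a single time was tested. The difference over times was tested with limma 3.58.1 (R 4.3.3, moderated with a trend on the mean level) with time as a block, over 4 pairs (3 residual degrees of freedom) or the 2 late pairs (1). The members and lists were chosen with earlier results of these data known. Named are the genes past 0.5 in the late window, the 3 lowest and 3 highest, the MCM2-7 genes, ORC1, CDC6, CDT1, PCNA, RRM1, RRM2, TYMS and RPA1 to RPA3, with all 9 values, the others by count or logFC, and in the other lists up to 4 genes past 0.5.

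Symbols were matched to GENCODE version 29 (87.5% of the table, all 46 members). Levels per kilobase used the transcript with the longest coding sequence. Alternatives were other normalisations (quantile, median centring, scaling to the total reads), a pseudocount of 10, a filter on the lowest 25% of expression, a 1.5-fold threshold, single times, both times, the 0 h library as the reference and other site definitions. Scripts, tested on simulated data, used Python 3.11.15, pandas 2.3.3, numpy 2.4.6 and matplotlib 3.10.9. The pull-down and other experiments were not analysed here.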

Additional observations from a re-analysis of the deposited data

Results flagged for a closer look

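In 3 replication genes a pair of libraries moved one way and the pair they are set against moved the opposite way, for POLA1 the early against the late times and for RFC4 and RFC1 the mimics against each other at 24 and 48 h alone. These differences were not tested. POLA1, the catalytic subunit of polymerase alpha, was above miR-CTRL at both early times, with logFCs of 0.09 at 6 h and 0.06 at 12 h, and below it at both late times, with −0.20 at 24 h and −0.36 at 48 h. RFC4, a small subunit of the clamp loader, was above its 0 h level with miR-CTRL, by 0.16 at 24 h and 0.11 at 48 h, and below it with miR-16, by −0.10 and −0.56. RFC1, the large subunit of the same loader, went the other way, with −0.05 and −0.06 from 0 h with miR-CTRL at 24 and 48 h and 0.07 and 0.06 with miR-16. The 0 h library is shared by both mimics in the values of RFC4 and RFC1. The counting standard error of the POLA1 logFC was 0.05, 0.052, 0.055 and 0.055 at 6, 12, 24 and 48 h. The 95% counting intervals of its logFC at 6 h and at 12 h both include 0. That of the logFC at 24 and 48 h was 0.068 and 0.073 for RFC4, and 0.032 and 0.031 for RFC1. A counting error of the change from 0 h was not computed.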

How the results depend on the processing

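With 1 library per condition, differences between cultures are not covered by any error given here, and depth limits ORC6 most. Percentages in brackets here are the share of all genes called under the same setting. The 19 late down calls (5.73%) were 12 with quantile normalization (6.75%) and 9 with a 1.5-fold threshold (4.04%). They were 2 at 24 h alone (5.26%), 34 at 48 h alone (8.96%) and 2 with the threshold passed at both times (2.78%). With 0 h as the reference they were 37 (11.7%). The centring, scaling to the total reads, pseudocount and expression filter settings gave between 13 and 19 (between 3.68% and 5.45%). The single up call, GMNN (7.76%), became 0 at 48 h alone (10.4%), with the 1.5-fold threshold (5.67%) and at both times (4.03%). The count was also 0 with 0 h as the reference (14.1%), where the late value of GMNN was −0.65. The late median of −0.48 was −0.18 at 24 h alone, −0.75 at 48 h alone, −0.74 with 0 h as the reference and between −0.48 and −0.45 under the other 5 settings. The 8 falls from 0 h with miR-CTRL (9.79%) were 5 at 24 h alone (7.86%), 5 with the 1.5-fold threshold (7.18%) and 4 at both times (5.77%). The rises with miR-CTRL went from 0 (11.0%) to 1 at 48 h alone (15.5%). The 37 falls from 0 h with miR-16 (11.7%) were 17 at 24 h alone (8.55%) and 17 at both times (6.45%). The early counts of 0 and 1 were the same under the 3 alternatives tried. With 8mers alone, 0 members had a miR-16 site, against 4.95% of the protein-coding genes. With 6mers counted too, 9 members had (19.6%), against 46.8%. Under the 5 scaling and filter settings, 43 of the 46 genes kept a late logFC below 0 and none moved by more than 0.06. The limma fit with the libraries of an hour paired and time as a block was chosen after the data were seen. Over the 4 times it called 6 genes lower (5.73%) and 1 higher (4.93%). Over the 2 late times, where fewer libraries entered, 0 were called lower and 0 higher (0% each). There 25 genes were lower (16.2%) and 1 was higher (15.2%) at an unadjusted limma p under 0.05.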
